A study of Mus musculus with 7 samples.

Results

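The genes described here are 52 cell cycle and proliferation genes, taken by gene symbol from the 42689 mouse genes to which the deposited transcripts were matched. They fall into 16 genes of DNA replication and S phase, 5 regulators of the step from G1 into S phase, 29 genes of G2 and mitosis, and 2 inhibitors of cyclin-dependent kinases. RNA was sequenced from mouse hindlimb tendon of C57BL/6 background in a study of musculoskeletal injury, TGF-beta activated kinase 1 and heterotopic ossification, the growth of bone in soft tissue. The contralateral group holds 3 libraries from the uncut right hindlimb of mice that had received a burn with Achilles tenotomy, and the tenotomy group holds 2 libraries from the cut left hindlimb of such mice, both taken 3 weeks after injury. The burn was made with a block at 60 °C held for 18 s on 30% of the body surface, and the Achilles tendon was cut at its midpoint. The uninjured group holds 2 libraries from wild-type mice with neither burn nor tenotomy. The tissue was the stretch between the gastrocnemius and the heel bone. The labels do not say whether libraries of a group came from separate animals, so p-values measure only the spread between these libraries.

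A dividing cell copies its genome once in S phase and separates the copies in mitosis. In G1, cyclin D with its kinases inactivates the retinoblastoma protein, which frees E2F factors to switch on replication genes, while a later wave of genes, driven by the MuvB complex with B-Myb and FoxM1, supplies the mitotic kinases, motors and kinetochore parts. In adult tendon few cells divide, and after a tendon is cut, resident and infiltrating cells divide in the healing tissue.

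Promoter sequences show the binding motifs by which those waves are usually told apart. RefSeq promoters of the GRCm38.p6 build, 250 bases before to 50 after the start of each gene, were found for 43 of the 52 genes as 48 promoters. Motifs were searched on both strands: CCAAT for the CCAAT box, TTTGAA or TTCGAA for the cell cycle genes homology region (CHR) that MuvB binds, and TTTCCCGC, TTTCGCGC, TTTGCCGC or TTTGGCGC for E2F sites. A CHR match was present in 80% of the 25 mitosis promoters and in 18.8% of the 16 replication promoters, against 19.2% of all 32851 promoters in the table. An E2F match was present in 43.8% of the replication promoters, those of Cdc6, Cdt1, Mcm3, Mcm5, Mcm6, Mcm7 and Uhrf1, in 8.0% of the mitosis promoters and in 2.3% of all promoters. A CCAAT box was common to both classes, at 81.2% of replication and 88.0% of mitosis promoters against 37.4% of all. The members' promoters had a median GC content of 58.7%, against 52.7% over all promoters. Among the 10801 promoters at least as GC-rich as the member median, a CHR match was in 7.7%, an E2F match in 4.2% and a CCAAT box in 32.1%. A match is a string of letters and not a measured binding site.

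The 250 bases before the start are printed for a pair of replication genes that were higher in tenotomy (Mcm5, Mcm6), for a pair of mitosis genes that were higher (Cdk1, Mki67), and for Ube2c, a mitosis gene that was not, whose promoter held the same kinds of motif as that of Mki67. Each runs 5′ to 3′ on the gene's own strand, with motif matches in capitals. Runs longer than a motif are overlapping matches: a pair of E2F matches in Mcm5 and in Mcm6, and a pair of CCAAT boxes in Ube2c. The windows are chr8:75109259-75109508 on the plus strand for Mcm5, chr1:128359706-128359955 on the minus strand for Mcm6, chr10:69352913-69353162 on the minus strand for Cdk1, chr7:135716380-135716629 on the minus strand for Mki67 and chr2:164769679-164769928 on the plus strand for Ube2c.
Mcm5: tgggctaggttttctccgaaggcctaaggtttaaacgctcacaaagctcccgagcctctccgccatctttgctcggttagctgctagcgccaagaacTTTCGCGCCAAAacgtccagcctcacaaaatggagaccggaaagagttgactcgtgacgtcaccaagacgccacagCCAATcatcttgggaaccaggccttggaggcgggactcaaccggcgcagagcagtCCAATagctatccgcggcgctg
Mcm6: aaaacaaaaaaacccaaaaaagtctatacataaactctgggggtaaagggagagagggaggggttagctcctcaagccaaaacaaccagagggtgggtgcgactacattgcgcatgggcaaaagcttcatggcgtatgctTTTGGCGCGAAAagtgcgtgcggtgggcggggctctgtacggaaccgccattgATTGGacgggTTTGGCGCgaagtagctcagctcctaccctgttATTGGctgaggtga
Cdk1: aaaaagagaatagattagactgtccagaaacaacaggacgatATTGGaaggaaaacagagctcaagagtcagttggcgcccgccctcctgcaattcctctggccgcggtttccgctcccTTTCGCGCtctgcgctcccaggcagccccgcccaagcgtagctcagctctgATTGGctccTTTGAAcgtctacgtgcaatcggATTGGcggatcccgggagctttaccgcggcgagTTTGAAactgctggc
Mki67: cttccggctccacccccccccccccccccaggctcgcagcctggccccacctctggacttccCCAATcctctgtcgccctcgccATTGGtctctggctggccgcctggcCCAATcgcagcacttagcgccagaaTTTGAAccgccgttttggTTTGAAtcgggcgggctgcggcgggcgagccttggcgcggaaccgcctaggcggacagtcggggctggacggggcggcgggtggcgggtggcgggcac
Ube2c: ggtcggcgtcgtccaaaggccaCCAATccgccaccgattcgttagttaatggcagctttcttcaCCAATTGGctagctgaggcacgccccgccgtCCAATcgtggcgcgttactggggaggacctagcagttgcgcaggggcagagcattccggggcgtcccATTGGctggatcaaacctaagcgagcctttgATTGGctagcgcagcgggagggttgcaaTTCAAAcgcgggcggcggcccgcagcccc

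In these windows the Mcm5 and Mcm6 promoters held E2F matches and CCAAT boxes without a CHR. The Mki67 and Ube2c promoters held CCAAT boxes and a CHR without an E2F match, and the Cdk1 promoter held all 3 motifs.

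The libraries held 25927171 to 36725106 estimated counts, of which 76.41% to 81.4% lay on 5 features, led by the noncoding RNA Gm42418 and by Lars2. CPM values below are scaled to all counts after TMM adjustment, so values near 1 CPM are low in part because of those features. The 52 genes together had 874 to 2675 counts per library, and the median gene had 7 to 10 counts in the contralateral libraries and in uninjured 2, and 22 to 37 in the tenotomy libraries and in uninjured 1. A count of 3, the limit that a count of 0 allows, is 0.082 to 0.112 CPM. The 2 libraries labelled uninjured stood apart from each other. A chi-square of counts, divided by its degrees of freedom, was taken for each pair of libraries. The 5 most abundant features and those with few counts in the pair were left out. For the 2 uninjured libraries this chi-square came to 71.272, over 14638 features. It was 3.048 and 3.243 for uninjured 1 with each tenotomy library, and 14.635 to 22.35 for uninjured 2 with the contralateral libraries. Uninjured 1 thus lay with the tenotomy libraries, against its label, and whether that label is right was not tested: uninjured 1 means the library labelled so. Results that rest on the uninjured libraries are given with and without each. The title numbers of the libraries form 3 series. The first holds the contralateral libraries with tenotomy 1, the second tenotomy 2 with uninjured 1, and the third uninjured 2.

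Mitosis genes had the largest fold changes between the cut and the uncut limb, with Mki67 at 8.71-fold and Top2a at 4.26-fold, while replication genes such as Mcm6 were near 1.88-fold and Rrm1 and the inhibitors were near 1. In edgeR's quasi-likelihood fit of all 7 libraries with Benjamini-Hochberg adjustment over 16028 features, 19 of the 46 members tested rose in tenotomy against contralateral, and 0 fell. Over all features tested, 13.6% rose and 15.4% fell. The 19 were 14 of 25 mitosis genes, 3 of 15 replication genes and 2 of 4 G1/S regulators, with 0 of 2 inhibitors. The 2 tenotomy libraries lay above all 3 contralateral libraries for 36 members and below them for 1, where 31.9% and 31.8% of all features did so. The median log2 fold change was 1.29 over the members, and about 0 over all features (-0.001).

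The filter on low counts bears on those numbers. It asked for 0.314 CPM in 2 libraries. Of the 46 members, 22 were above that level in 2 or more contralateral libraries, and 9 of these rose: 3 of 10 replication genes, 2 of 3 G1/S regulators, 4 of 7 mitosis genes and 0 of 2 inhibitors. The other 24 members were above it in fewer, so they entered through the tenotomy or uninjured libraries in which they were high, which favours members that differ from contralateral. Of these, 10 rose, all of them mitosis genes: Cdk1, Ccna2, Ccnb1, Foxm1, Plk1, Aurkb, Kif11, Kif23, Cenpe and Ncapg. The calls given below for these 10 carry that limit. The filter removed Cdt1, Ccne1, Ccnb2, Bub1, Melk and Ttk. With no filter on low counts, 28 of the 52 genes rose, 20 mitosis and 6 replication genes among them, against 8.12% of 29100 features. In bulk tissue, fewer cells of a dividing type and less RNA per cell cannot be told apart.

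**Figure D1:**
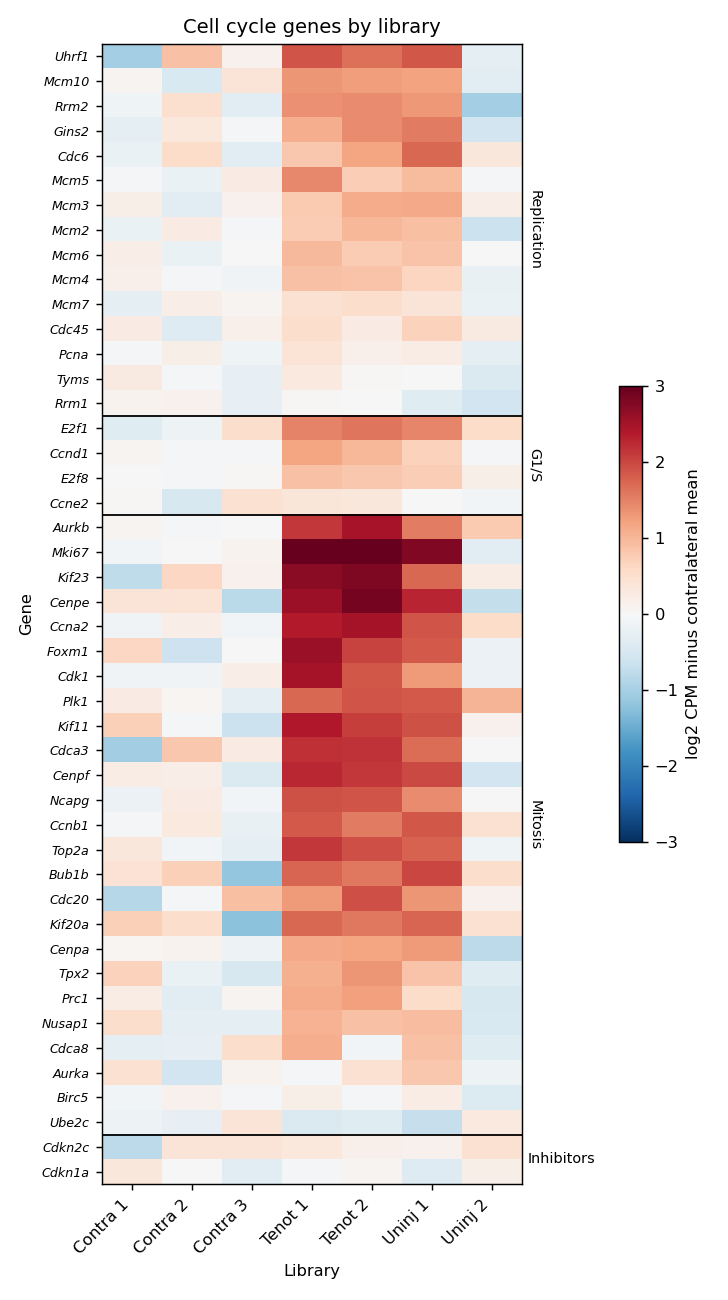
Log2 CPM of each tested gene (rows, by class) in each library (columns), as the difference from the mean of the 3 contralateral libraries, red above and blue below. The tenotomy libraries and uninjured 1 are red over most mitosis genes, while uninjured 2 stays near the contralateral libraries. Ube2c, Birc5 and the inhibitors do not share the red.

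The replication genes start with the helicase that unwinds DNA, the ring of Mcm2 to Mcm7. Summed over those 6 genes the level was 5.10, 4.92 and 5.13 CPM in the contralateral libraries, 9.36 and 9.0 in tenotomy, 8.84 in uninjured 1 and 4.54 in uninjured 2. The tenotomy libraries were the highest, 1.82 times the contralateral mean, with uninjured 1 close below them. Mcm5 was at 0.412, 0.370 and 0.526 CPM in the contralateral libraries, 1.28 and 0.767 in tenotomy, 0.898 in uninjured 1 and 0.413 in uninjured 2. Both tenotomy libraries lay above every contralateral library, although tenotomy 1 stood well above tenotomy 2. The log2 fold change was 1.24 ± 0.39 (SE), with an edgeR adjusted p of 0.0498. That call was lost in 6 of 12 other settings. It was also lost in the 5 fits without a contralateral or tenotomy library, in which no member was called. Mcm6 measured 1.42, 1.05 and 1.21 CPM in the contralateral libraries, 2.48 and 2.10 in tenotomy, 2.26 in uninjured 1 and 1.20 in uninjured 2. Its groups did not overlap either, and it rose by 0.91 ± 0.28 (adjusted p = 0.0447). Mcm4 rose by 0.90 ± 0.27 (adjusted p = 0.0405). Mcm3, at 1.01, and Mcm7, at 0.47, did not pass the test (adjusted p = 0.0574 and 0.176).

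Mcm2 stood at 0.487, 0.683 and 0.557 CPM in the contralateral libraries, 1.01 and 1.20 in tenotomy, 1.11 in uninjured 1 and 0.344 in uninjured 2. The groups did not overlap, but the log2 fold change of 0.92 ± 0.42 did not pass (adjusted p = 0.138). Cdc6 and Cdt1 load the helicase onto origins and are scarce in resting cells. Cdc6 had 2, 6 and 2 counts in the contralateral libraries, 8 and 9 in tenotomy, 13 in uninjured 1 and 4 in uninjured 2, and its log2 fold change of 1.25 ± 0.70 did not pass (adjusted p = 0.213). Cdt1, which was not tested, had 2, 5 and 6 counts in the contralateral libraries, 8 and 9 in tenotomy, 6 in uninjured 1 and 8 in uninjured 2. At these counts a change of the loading factors was not resolved. Mcm10, Cdc45 and Gins2, which help to fire the loaded helicase, had log2 fold changes of 1.65, 0.47 and 1.37, none of which passed.

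Pcna, the sliding clamp of the polymerases, measured 2.10, 2.45 and 1.98 CPM in the contralateral libraries, 2.88 and 2.43 in tenotomy, 2.52 in uninjured 1 and 1.76 in uninjured 2. Tenotomy 2 fell within the contralateral range, and the log2 fold change was 0.29 ± 0.20 (adjusted p = 0.313). The subunits of ribonucleotide reductase, which makes the DNA building blocks, differed in pattern. Rrm2, the subunit made mainly in S phase, measured 0.375, 0.598 and 0.309 CPM in the contralateral libraries, 1.17 and 1.20 in tenotomy, 1.11 in uninjured 1 and 0.172 in uninjured 2. Rrm2 groups did not overlap, yet its log2 fold change of 1.45 ± 0.59 missed the threshold in the fit of all libraries (adjusted p = 0.0986). Rrm1, the subunit that is also present outside S phase, measured 2.92, 2.99 and 2.29 CPM in the contralateral libraries, 2.80 and 2.67 in tenotomy, 2.08 in uninjured 1 and 1.79 in uninjured 2. The tenotomy values lay inside the contralateral range, and the log2 fold change was 0.00 ± 0.17 (adjusted p = 0.995). Its sign changed with the scaling and with the filter.

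Uhrf1, which carries DNA methylation onto the new strand, had the highest log2 fold change of the replication genes at 1.73 ± 0.70 and did not pass (adjusted p = 0.0988). It measured 0.0750, 0.455 and 0.247 CPM in the contralateral libraries, 0.979 and 0.833 in tenotomy, 0.970 in uninjured 1 and 0.172 in uninjured 2. Contralateral 1 was far below the other contralateral libraries. Tyms, the thymidylate synthase, had a log2 fold change of 0.16 ± 0.21 (adjusted p = 0.609). Of the Tyms counts 70.7% lay on protein-coding transcripts, and a processed pseudogene carries its name, so its counts may be shared.

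Among the G1/S regulators, Ccnd1, the cyclin D1 that links growth signals to the cycle, measured 3.49, 3.22 and 3.25 CPM in the contralateral libraries, 7.56 and 6.70 in tenotomy, 5.39 in uninjured 1 and 3.24 in uninjured 2. The contralateral libraries were tightly grouped and every one lay below both tenotomy libraries. Ccnd1 rose by 1.11 ± 0.21 (adjusted p = 0.0167), or 2.15-fold. E2f1, an activating E2F factor, measured 0.337, 0.398 and 0.680 CPM in the contralateral libraries, 1.39 and 1.5 in tenotomy, 1.37 in uninjured 1 and 0.688 in uninjured 2. The groups did not overlap, and E2f1 rose by 1.59 ± 0.37 (adjusted p = 0.0205).

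The remaining G1/S genes gave no call. E2f8, a repressing E2F factor, measured 0.30, 0.285 and 0.309 CPM in the contralateral libraries, 0.598 and 0.567 in tenotomy, 0.539 in uninjured 1 and 0.344 in uninjured 2, a log2 fold change of 0.96 ± 0.32 (adjusted p = 0.0588). Ccne2, the cyclin E2 of S phase entry, measured 1.05, 0.711 and 1.42 CPM in the contralateral libraries, 1.33 and 1.30 in tenotomy, 1.01 in uninjured 1 and 0.964 in uninjured 2. The Ccne2 groups overlapped, with a log2 fold change of 0.32 ± 0.29 (adjusted p = 0.443) that turned to -0.13 with counts made from length-scaled TPM. Ccne1 was too low for the test, at 4, 3 and 4 counts in the contralateral libraries, 9 and 6 in tenotomy, 2 in uninjured 1 and 4 in uninjured 2.

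Among the mitosis genes, Mki67 encodes the Ki-67 protein that coats mitotic chromosomes and is the usual marker of cycling cells. It measured 0.750, 0.797 and 0.866 CPM in the contralateral libraries, 7.23 and 6.87 in tenotomy, 5.82 in uninjured 1 and 0.619 in uninjured 2. The tenotomy libraries and uninjured 1 were high and the other 4 libraries low, with no value between. Mki67 rose by 3.12 ± 0.69 (adjusted p = 0.0186), or 8.71-fold. Top2a, the topoisomerase that untangles chromosomes, measured 1.16, 0.854 and 0.742 CPM in the contralateral libraries, 4.13 and 3.63 in tenotomy, 3.23 in uninjured 1 and 0.826 in uninjured 2, with the same libraries high. It rose by 2.09 ± 0.47 (adjusted p = 0.0192), or 4.26-fold. For Top2a, 67.0% of counts lay on protein-coding transcripts, and with counts made from length-scaled TPM its log2 fold change was 1.26 and did not pass.

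Cdk1, the kinase that starts mitosis, measured 0.112, 0.114 and 0.155 CPM in the contralateral libraries, 1.01 and 0.633 in tenotomy, 0.395 in uninjured 1 and 0.103 in uninjured 2. For Cdk1, uninjured 1 lay between the tenotomy and the contralateral libraries. It rose by 2.66 ± 0.53 (adjusted p = 0.0167). Ccna2, cyclin A2, measured 0.150, 0.199 and 0.155 CPM in the contralateral libraries, 1.14 and 1.23 in tenotomy, 0.791 in uninjured 1 and 0.275 in uninjured 2. Ccna2 rose by 2.78 ± 0.44 (adjusted p = 0.0167). Ccnb1, cyclin B1, had 2, 4 and 2 counts in the contralateral libraries, 17 and 11 in tenotomy, 13 in uninjured 1 and 4 in uninjured 2. Ccnb1 rose by 2.25 ± 0.61 (adjusted p = 0.0319), and it has a pseudogene that carries its name. Only 43.8% of its counts lay on protein-coding transcripts. In the contralateral libraries these were at 0, and in uninjured 1 the retained-intron transcript Ccnb1-206 held 10.8 estimated counts. Of the 12 other settings, the call was kept in 8 and lost with limma-voom and against 1.5-fold. Ccnb1 was not among the genes tested in the remaining ones. Ccnb2, cyclin B2, was not tested and had 1, 1 and 6 counts in the contralateral libraries, 6 and 14 in tenotomy, 6 in uninjured 1 and 1 in uninjured 2.

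Foxm1, a transcription factor of the mitotic wave, measured 0.225, 0.0569 and 0.124 CPM in the contralateral libraries, 1.06 and 0.700 in tenotomy, 0.611 in uninjured 1 and 0.103 in uninjured 2. It rose by 2.74 ± 0.69 (adjusted p = 0.025). Plk1, a kinase of spindle assembly, had 2, 2 and 1 counts in the contralateral libraries, 12 and 11 in tenotomy, 10 in uninjured 1 and 5 in uninjured 2. Plk1 rose by 2.61 ± 0.58 (adjusted p = 0.0189). For both genes the 2 tenotomy libraries were above the 3 contralateral libraries.

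Aurkb, the kinase that checks how chromosomes attach to the spindle, had the highest log2 fold change of all members, 3.52 ± 0.59 (adjusted p = 0.0167). Aurkb passed the filter through the 2 tenotomy libraries alone, in which it was high. It had 1 count in each contralateral library, 13 and 14 in tenotomy, 6 in uninjured 1 and 3 in uninjured 2. Over the groups that is 3 counts against 27, a ratio of rates of 12.7 with an exact 95% interval from 3.91 to 65.37 that covers counting error only. Bub1, a kinase of the spindle checkpoint that the filter removed, had 1, 1 and 0 counts in the contralateral libraries, 10 and 14 in tenotomy, 5 in uninjured 1 and 0 in uninjured 2. Its ratio of rates was 16.9, with an interval from 4.20 to 147.7. Both ratios are thus large but loosely set by so few counts.

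The other mitosis genes that rose were motors, kinetochore and chromosome parts. The motors Kif11 and Kif23, which push spindle poles apart and divide the cell body, had log2 fold changes of 2.48 and 3.08. Cenpe and Cenpf of the outer kinetochore had 2.98 and 2.32, the condensin subunit Ncapg had 2.26, and Prc1, which bundles the midzone microtubules, had 1.22. Members that did not pass included Cdca3 at 2.47, Bub1b and Cdc20 at 1.74 each, Kif20a at 1.72, Cenpa at 1.32, Tpx2 at 1.26, Nusap1 at 1.02 and Cdca8 at 0.70, with adjusted p between 0.0529 and 0.409. Of the checkpoint kinases below the filter, Ttk had 4, 1 and 1 counts in the contralateral libraries, 21 and 6 in tenotomy, 7 in uninjured 1 and 1 in uninjured 2. Melk, a kinase common in dividing cells, had 3, 1 and 0 counts in the contralateral libraries, 11 and 6 in tenotomy, 7 in uninjured 1 and 0 in uninjured 2.

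**Figure D2:**
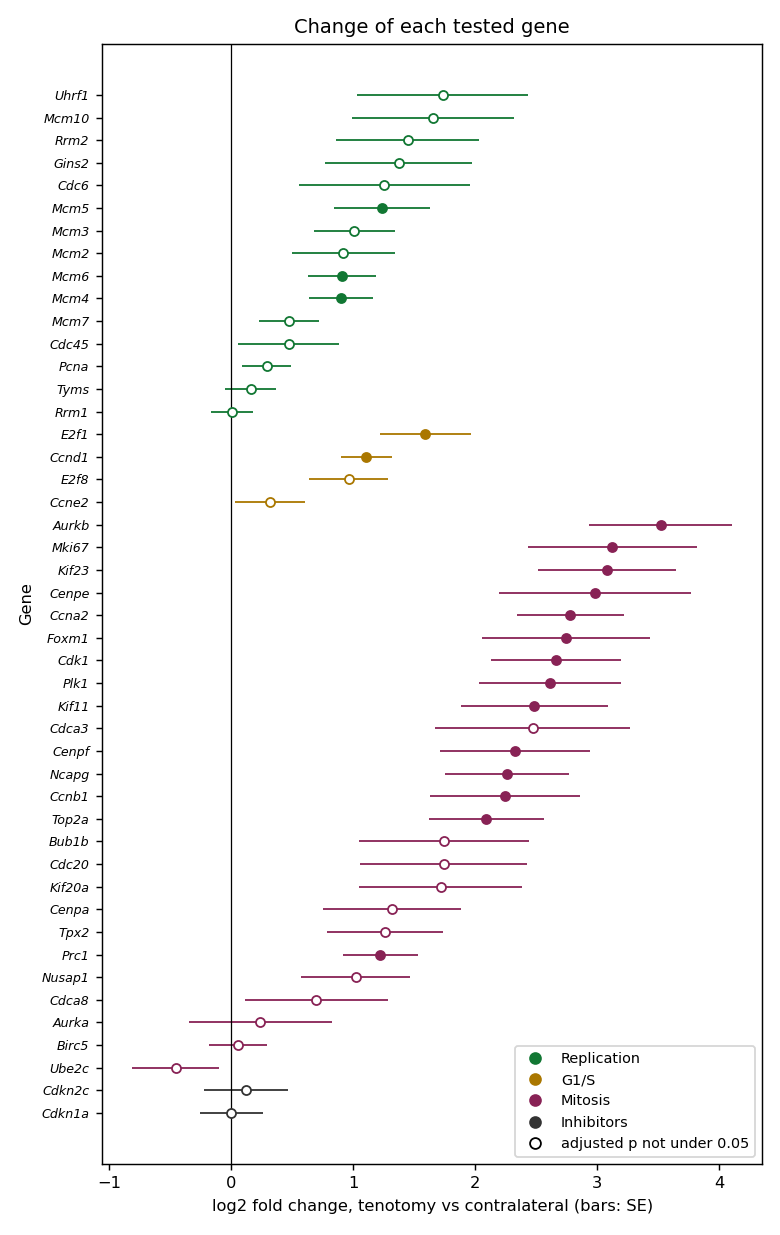
Log2 fold change of each tested gene in tenotomy against contralateral (points) with its standard error (bars), by class and color, filled where the edgeR adjusted p is under 0.05. Mitosis genes reach from -0.46 for Ube2c to 3.52 for Aurkb, and replication genes from 0.00 for Rrm1 to 1.73 for Uhrf1.

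A few mitosis genes stood apart from their class. Ube2c, which helps to mark cyclins for destruction, measured 0.974, 0.911 and 1.45 CPM in the contralateral libraries, 0.789 and 0.833 in tenotomy, 0.647 in uninjured 1 and 1.34 in uninjured 2. It was the only tested member whose tenotomy libraries both lay below every contralateral library, and its log2 fold change of -0.46 ± 0.36 did not pass (adjusted p = 0.365). Ube2c lies at chr2:164769898-164778822 on the plus strand (GRCm38). Its exons overlap those of Tnnc2, the fast muscle troponin C, on the opposite strand, and the sources used here do not state that counting used strand. Without strand, reads from the stretch the exons share cannot be told apart. Tnnc2 measured 315.0, 360.3 and 485.3 CPM in the contralateral libraries, 41.5 and 36.5 in tenotomy, 48.1 in uninjured 1 and 338.6 in uninjured 2. The Ube2c transcripts differed in the same libraries. Ube2c-201, the longer at 2191 bases, had 13.1, 21.4 and 26.4 estimated counts in the contralateral libraries, 5.7 and 6.5 in tenotomy, 6.4 in uninjured 1 and 28.1 in uninjured 2. Ube2c-202, of 967 bases, had 13.3, 10.9 and 20.4 in the contralateral libraries, 23.8 and 18.6 in tenotomy, 11.5 in uninjured 1 and 11.4 in uninjured 2. The longer transcript was thus high where Tnnc2 was high, and the shorter one was not, but the part of Tnnc2 reads in the Ube2c counts was not tested.

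Birc5, the survivin of the chromosomal passenger complex, had a log2 fold change of 0.05 ± 0.24 (adjusted p = 0.892). Nearly all its counts lay on Birc5-202, of 3334 bases, at 34.7, 54.1 and 44.1 estimated counts in the contralateral libraries, 53.6 and 37.6 in tenotomy, 44.1 in uninjured 1 and 30.1 in uninjured 2. Birc5-201, of 947 bases, had 0 in all contralateral libraries, 4.3 and 2.6 in tenotomy, 1.7 in uninjured 1 and 0 in uninjured 2. The transcript seen only in tenotomy and uninjured 1 was therefore a small share of the gene's counts. Aurka, the spindle pole kinase, had a log2 fold change of 0.24 ± 0.59 (adjusted p = 0.796) on 4 to 11 counts per library.

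The inhibitors gave no call. Cdkn1a, the p21 protein that p53 induces, measured 2.51, 1.94 and 1.55 CPM in the contralateral libraries, 1.90 and 2.07 in tenotomy, 1.47 in uninjured 1 and 2.24 in uninjured 2. Its tenotomy values lay inside the contralateral range, with a log2 fold change of -0.002 ± 0.258 whose sign changed with the scaling. Cdkn2c, the p18 protein that blocks the cyclin D kinases, measured 0.750, 1.79 and 1.79 CPM in the contralateral libraries, 1.69 and 1.5 in tenotomy, 1.47 in uninjured 1 and 1.86 in uninjured 2. Contralateral 1 was low, and the log2 fold change was 0.12 ± 0.35 (adjusted p = 0.822). As a share of the TPM of all 52 genes, Cdkn1a made up 8.3%, 7.2% and 5.6% in the contralateral libraries, 4.4% and 4.3% in tenotomy, 3.5% in uninjured 1 and 7.9% in uninjured 2.

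**Figure D3:**
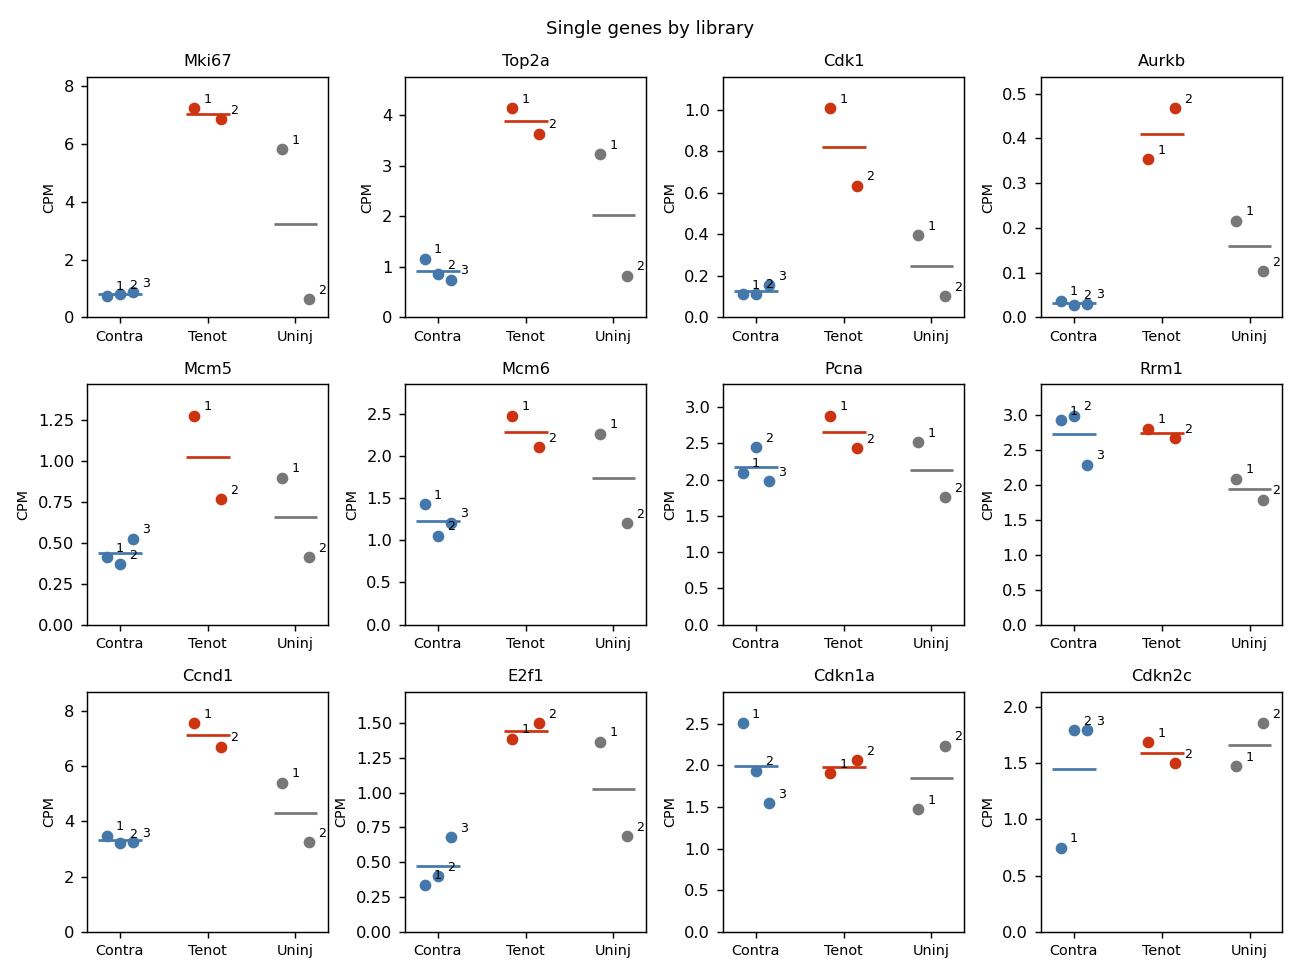
CPM of 12 members in each library, numbered by replicate, with a line at each group mean and axes that start at 0. Mki67, Top2a, Cdk1 and Aurkb separate tenotomy from contralateral widely, Mcm5, Mcm6, Ccnd1 and E2f1 less widely, and Pcna, Rrm1, Cdkn1a and Cdkn2c overlap. The 2 uninjured libraries lie apart for most of the genes that rose.

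Set against each other, the mitosis class differed between the limbs by a larger factor than the replication class. The classes lay closer among members above the filter level in 2 or more contralateral libraries. There the median log2 fold change was 1.22 over 7 mitosis genes and 0.90 over 10 replication genes. Among members above it in fewer, the medians were 2.36 over 18 mitosis genes and 1.37 over 5 replication genes. Class sums use every gene of a class, filtered or not. The 29 mitosis genes summed to 9.36 ± 0.79 CPM (SD, n = 3) in the contralateral libraries and 32.9 ± 1.2 (SD, n = 2) in tenotomy, a ratio of 3.51, with 26.9 in uninjured 1 and 8.05 in uninjured 2. The 16 replication genes summed to 15.9 ± 1.2 CPM (SD, n = 3) in the contralateral libraries and 23.5 ± 1.2 (SD, n = 2) in tenotomy, a ratio of 1.48, with 22.2 in uninjured 1 and 12.6 in uninjured 2. G1/S regulators lay between, with a ratio of 2.03, and the inhibitors were at 1.04. The mitosis ratio was 2.87 without Mki67 and Top2a and 4.47 without Birc5 and Ube2c, and the replication ratio was 1.81 without Tyms and Rrm1. On this scale the mitosis sum was lower than the replication sum in the contralateral limb and higher in the cut limb. The contralateral order depended on Tyms and Rrm1. Without those 2 genes the replication sums were 8.43, 9.33 and 8.63 CPM in the contralateral libraries, against mitosis sums of 10.3, 8.96 and 8.84.

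Per length, the ratio of summed replication TPM to summed mitosis TPM was 1.33, 1.78 and 1.35 in the contralateral libraries, 0.850 and 0.736 in tenotomy, 0.898 in uninjured 1 and 1.30 in uninjured 2. All contralateral libraries and uninjured 2 were above 1, and the tenotomy libraries and uninjured 1 below it. The mean log2 ratio differed by -0.90 between tenotomy and contralateral, and by -1.05 without Birc5, Ube2c, Tyms and Rrm1. As a difference of class medians of log2(TPM + 0.1) it was -0.04, but 82.9% of the values were under that pseudocount. With a pseudocount of 0.01 it was -0.45. No test of one class against the other was made.

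**Figure D4:**
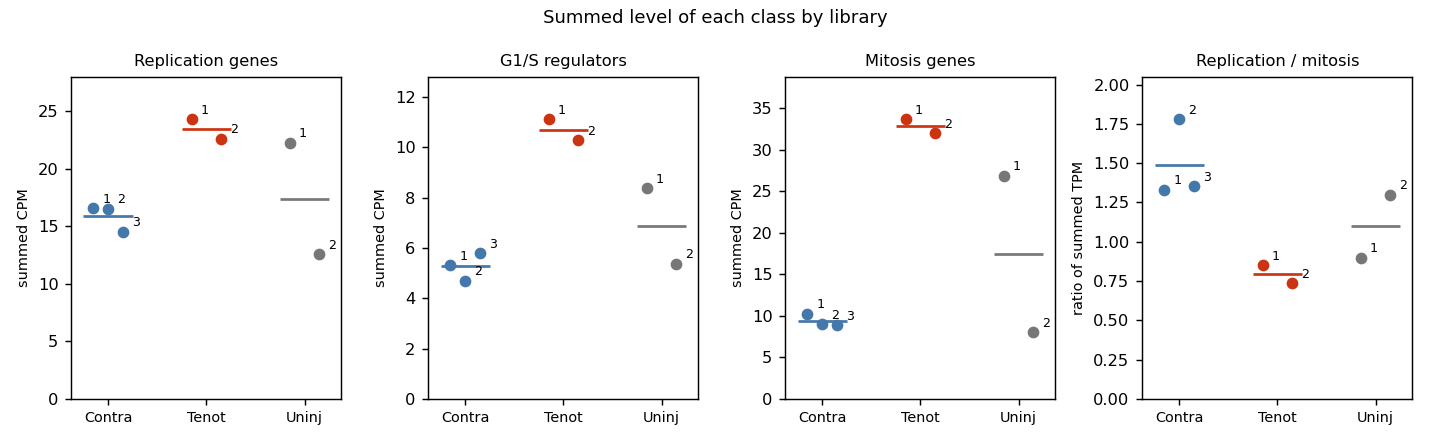
Summed CPM of the replication, G1/S and mitosis genes, and the ratio of summed replication to summed mitosis TPM, in each library (points, numbered by replicate) with a line at each group mean and axes from 0. The mitosis sums are 32.0 and 33.7 CPM in tenotomy against 8.84 to 10.3 in the contralateral libraries, and the ratio is below 1 in tenotomy and uninjured 1.

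By TPM, which allows genes to be compared, the highest mean levels in tenotomy were those of Pcna (0.317), Ccnd1 (0.278), Tyms (0.218), Cdkn2c (0.212) and Cdk1 (0.200). In the contralateral limb they were those of Pcna (0.274), Tyms (0.215), Cdkn2c (0.199), Cdkn1a (0.183) and Mcm7 (0.172). Cdk1 was thus the only mitosis gene among the leading 5 of either group. In the tenotomy libraries 11.3 and 6.0 of its estimated counts lay on Cdk1-207, of 695 bases. Another 5.6 and 4.2 lay on the retained-intron transcript Cdk1-204, of 475 bases. TPM is scaled by effective transcript length, so few counts on short transcripts weigh heavily in this rank.

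Comparisons with the uninjured mice gave no call. Tenotomy against uninjured and contralateral against uninjured each had 0 of 16028 features called by edgeR (0.00%). At an unadjusted p under 0.05, 7 members were higher in tenotomy than in uninjured (Rrm1, Ccnd1, Cdk1, Ccna2, Aurkb, Kif23 and Prc1) and 0 lower, where 3.27% of all features were higher and 7.59% lower. In contralateral against uninjured, 6 members were lower (E2f1, Mki67, Ccna2, Ccnb1, Aurkb and Plk1) and 1 higher (Rrm1), against 10.5% of all features lower and 8.72% higher. These comparisons share the uninjured libraries. The median log2 fold changes over the tested members were 0.61 and -0.73.

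Those values hide 2 unlike libraries. Uninjured 1 was above every contralateral library for 40 of the 46 members, as it was for 39.0% of all features, and uninjured 2 was for 9, against 26.7%. Uninjured 2 was below both tenotomy libraries for 42 members, against 42.1% of all features, and uninjured 1 was for 27, against 35.6%. The filter bears on the counts of members in this paragraph too. Of the 46 members, 24 entered through tenotomy or uninjured libraries in which they were high, which favours such an order of libraries. Without uninjured 1, 22 of 51 members were called higher in tenotomy than in the lone uninjured 2 (11.4% of all features), with a median of 1.58, and 0 were called between contralateral and uninjured (0.306% of all features higher and 0.311% lower). Without uninjured 2, 0 members were called in tenotomy against the lone uninjured 1 (0.0593% of all features higher and 0.0237% lower), with a median of 0.22, and 22 of 50 were called lower in contralateral than in uninjured 1 (15% of all features), with a median of -1.37. In both fits the lone library is assumed to vary like the other groups.

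Spread in the uninjured group also set how many members were called between the other 2 groups, because the fit shares 1 estimate of the spread. With 1 or the other uninjured library left out, 35 members rose in tenotomy against contralateral (21% of all features without uninjured 1 and 21.2% without uninjured 2). With only the contralateral and tenotomy libraries in the fit, 34 of 46 rose, 22 mitosis and 9 replication genes among them (22.1% of all features). Tested against a change of 1.5-fold, 8 members rose, each a mitosis gene (4.12% of all features). By DESeq2, 17 rose, of which 15 were mitosis and 0 replication genes (10.5% of all features). In the edgeR fit of all libraries, 29 members were higher at an unadjusted p under 0.05 (21% of all features). Leaving out any 1 of the 3 contralateral or 2 tenotomy libraries left 0 members called, and 0 of all features. The median over the members moved little, between 1.25 and 1.47, in those 5 fits.

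Within the title-number series the picture was divided. In the first series, tenotomy 1 exceeded the contralateral mean by a median log2 difference of 0.81 over the replication genes and 1.85 over the mitosis genes. In the second, tenotomy 2 differed from uninjured 1 by -0.04 and 0.18. The third holds a single library. With series as a covariate, 26 members rose in tenotomy against contralateral (16.6% of all features), and 8 were lower in contralateral than in uninjured (7.0%). That fit has 5 terms for 7 libraries and fits tenotomy 2 and both uninjured libraries exactly. Its tenotomy value is therefore that of tenotomy 1 alone, and its uninjured value passes through the difference of uninjured 1 from tenotomy 2, so neither count rests on replicates outside the contralateral group.

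Other genes of the same pathways, from lists chosen with earlier results of these data known, were counted in tenotomy against contralateral. Of 33 further mitosis genes tested, 18 rose and 1 fell, with a median log2 fold change of 1.79. By the same filter, 14 of these were above the level in 2 or more contralateral libraries, and of them 5 rose and 1 fell. The other 19, Ckap2l and Cks2 among them, entered through libraries in which they were high, and 13 of those rose. The highest were Ckap2l and Aspm of the spindle and Cks2, a partner of Cdk1, at 4.61, 3.22 and 3.90. Ckap2l had 3 contralateral counts in all against 58 in tenotomy, a ratio of rates of 27.3 (exact 95% interval 8.88 to 136). Cks2 had 2 against 25, a ratio of 17.6 (4.40 to 153.6). Both intervals cover counting error only. They are no test, because these genes were picked as the highest and passed the filter through tenotomy alone. Pttg1, which encodes securin, fell by 1.46 on the log2 scale. Of 33 further replication genes tested, 5 rose and 2 fell, with a median of 0.29, so that the share that rose (15.2%) was near the 13.6% of all features. Chaf1a of the histone chaperone CAF-1, Clspn of the replication checkpoint and the ligase Lig1 rose by 2.09, 1.56 and 1.38, while the single-strand binding subunits Rpa2 and Rpa1 fell by 1.07 and 0.75.

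Of 19 further G1 and E2F genes tested, 5 rose and 2 fell, where 13.6% of all features rose and 15.4% fell. Myc, Cdk4 and Cdk6, which drive G1, rose by 1.28, 0.95 and 0.95, and the repressor E2f6 and the MuvB subunit Lin52 fell by 2.00 and 1.31. Of 14 further inhibitors tested, Cdkn1c, the p57 protein, rose by 1.11 and Btg1, an antiproliferative gene, by 0.79, while Ccng1, a p53 target, fell by 2.41. The 14.3% of inhibitors that rose were near the share of all features.

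Markers of several other cell types moved in the same libraries. Over all features tested, 13.6% rose in tenotomy against contralateral and 15.4% fell. Macrophage and leukocyte markers rose in 12 of 13, with a sum of 33.2 to 41.8 CPM in the contralateral libraries, 145.0 and 149.0 in tenotomy, 147.1 in uninjured 1 and 42.7 in uninjured 2. Skeletal muscle markers fell in 20 of 20, with a sum of 25324 to 27765 CPM in the contralateral libraries, 2177 and 2193 in tenotomy, 2777 in uninjured 1 and 18658 in uninjured 2. Markers of tendon, the labelled tissue, were present in every library, from 1199 to 1606 CPM in the contralateral libraries, 7056 and 7064 in tenotomy, 6454 in uninjured 1 and 4522 in uninjured 2, and 6 of 11 rose. Fibroblast markers rose in 6 of 7 and chondrocyte markers in 7 of 9. Of 7 endothelial markers 0 rose and 1 fell, and of 8 adipocyte markers 0 rose and 3 fell. Of 4 erythroid markers tested 1 rose and 0 fell. The neutrophil, marrow progenitor and lymphocyte lists also had higher sums in tenotomy, although many of their genes were too low for the test. The neutrophil list had a mean sum of 2.20 CPM in the contralateral libraries and 3.37 in tenotomy, the marrow progenitor list 17.9 and 24.8, and the lymphocyte list 1.87 and 3.63. Csf3r was called higher of 2 neutrophil markers tested, Cd34 of 3 marrow progenitor markers and Cd4 of 4 lymphocyte markers. Of the defining neutrophil genes, Mmp8 had 0 counts in every library, while S100a8 had 0 in the contralateral libraries and uninjured 2, 6 and 3 in tenotomy and 7 in uninjured 1. Ctsg, of marrow progenitors, was at 0 in all but tenotomy 2. Of 5 satellite cell markers tested 1 fell, and that list summed to 1.20 and 1.53 CPM in tenotomy and 5.75 to 7.68 in the contralateral libraries. The part of these cell types in the change of the cell cycle genes was not tested.

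**Figure D5:**
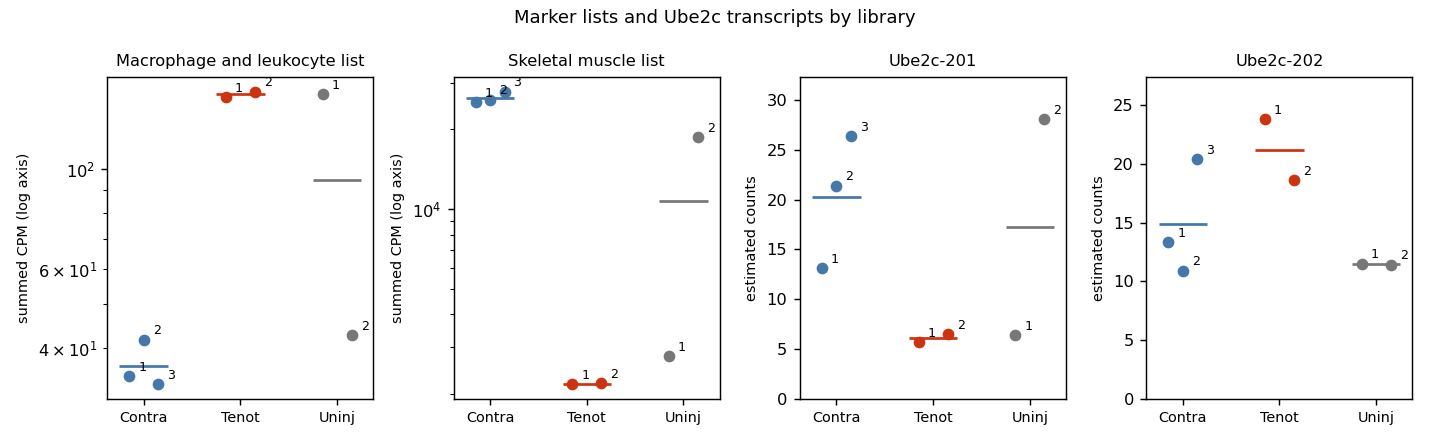
Summed CPM of the macrophage and leukocyte list and of the skeletal muscle list (log axes), and estimated counts of the 2 Ube2c transcripts (axes from 0), in each library, numbered by replicate, with a line at each group mean. Uninjured 1 lies with tenotomy on both lists and uninjured 2 near the contralateral libraries. Ube2c-201 is high in the libraries in which the muscle list is high, while Ube2c-202 shows no such split.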

How the data were processed

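RNA from 7 libraries of mouse hindlimb tendon was quantified per transcript by the authors with kallisto, after FastQC 0.11.4, per the submitters' processing notes. Those notes name the human build GRCh38, while the transcript IDs are mouse Ensembl IDs. Per the file headers, the deposited files give estimated counts, which are not normalized, and the deposited TPM, which are scaled by effective transcript length. Of 103639 transcripts, 101510 matched GENCODE M21 (GRCm38) by ID without version. Estimated counts were summed per gene and rounded, and the 2129 unmatched transcripts were kept as single features.

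Features were filtered with filterByExpr (minimum count 10), scaled by TMM and fitted with edgeR 4.0.16 (R 4.3.3) in 1 quasi-likelihood fit of 7 libraries, with Benjamini-Hochberg adjustment over all features and a threshold of 0.05. SE is the log2 fold change over the root of F. Log2 CPM used a prior count of 2. Groups follow the condition label. Genes named in full, those removed by the filter and the extremes of each class were set by rule. The members, the lists and the rule were chosen with earlier results of these data known. The script was checked on simulated data. Alternatives were RLE and upper quartile scaling, TMM without the most abundant features, other filters, DESeq2 1.42.0, limma-voom (limma 3.58.1), length-scaled TPM, a test against 1.5-fold, the title-number series, and leaving out each library. Depth and counting limits stand in the results. Promoters came from RefSeq (GRCm38.p6); those of Mcm4, Gins2, Ccnd1, Ccna2, Tpx2, Aurkb, Ccne2, Foxm1 and Kif20a were not used here.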

Additional observations from a re-analysis of the deposited data

How the results depend on the processing

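The main value was 19 members higher in tenotomy than in contralateral (13.6% of all features). The count was 12 with a minimum count of 30, 34 with only the groups compared in the fit (22.1%) and 8 when tested against 1.5-fold (4.12%). It ranged from 0 to 35 when each library was left out. The 14 mitosis genes became 8 with a minimum count of 30, 22 with only the groups compared and 8 against 1.5-fold, and 0 to 23 when each library was left out. The 3 replication genes became 0 with DESeq2, 6 with no filter, 9 with only the groups compared, 5 with series as a covariate (where tenotomy 1 alone stands for tenotomy), 0 against 1.5-fold and 1 with protein-coding transcripts only, an alternative added after seeing the data, and 0 to 9 when each library was left out. Members lower in contralateral than in uninjured became 8 with series as a covariate (through single libraries) and ranged from 0 to 22 when each library was left out, as did members higher in tenotomy than in uninjured. The 0 members lower in tenotomy than in contralateral stayed at 0 in every alternative run. The replication to mitosis difference of -0.899 was -1.25 by summed CPM, -0.044 and -0.452 as medians with a pseudocount of 0.1 and 0.01 TPM (the second added after seeing the data), and -1.002 to -0.763 when each library was left out. Some log2 fold changes near 0 turned sign. That of Rrm1 was -0.0095 with TMM without the most abundant features, -0.011 with no filter, -0.00045 with only the groups compared, and -0.112 to 0.069 when each library was left out. That of Ccne2 was -0.133 with length-scaled TPM. That of Cdkn1a was 0.0071 with RLE, 0.108 with upper quartile scaling, 0.0046 with DESeq2, 0.028 with limma-voom, 0.027 with a minimum count of 30, 0.13 with length-scaled TPM, 0.017 with protein-coding transcripts only and -0.157 to 0.181 when each library was left out. That of Cdkn2c was -0.172 to 0.302 when each library was left out. The cause of these shifts was not tested. Fits without a library rest on fewer samples, and a stricter filter tests fewer genes. For a minimum count of 30 and for protein-coding transcripts only, the share of all features called is not given here. The counts of members in those settings therefore have no baseline. Upper quartile scaling moved the median of all features to 0.113. No paired analysis was possible because the replicate numbers are in accession order and pair no libraries. Depth limits what can be said of members with under 10 counts in most libraries.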
